A study of Mus musculus with 14 samples.

Results

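Iron handling in the liver was followed through 10 genes, Hamp, Hamp2, Bmp6, Id1, Tfrc, Tfr2, Trf, Fth1, Ftl1 and Slc40a1, taken from the deposited read count table by gene symbol. All 10 were found among the 25212 listed genes, and all 10 passed the filter on low counts. The counts came from 14 livers of male C57BL/6 mice with diet-induced obesity, 1 library per liver. Every mouse was fed a high fat diet (HFD), and this was continued after the operations. The DIO group (5 livers) had no surgery, and no sham-operated livers were analysed here. In the GB-IL group (4 livers) the gallbladder was joined to the ileum and the common bile duct was tied, so that bile entered the distal small intestine. The RYGB group (5 livers) had a Roux-en-Y gastric bypass, which leads food past most of the stomach and the upper small intestine. All livers were labelled as taken at 8 weeks. In the study's methods a low haematocrit is described in a share of mice with RYGB and no anaemia after gallbladder anastomosis, and the haematocrit of these 14 mice was not used here. Each library is labelled as its own liver, and p-values measure the spread between these livers.

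Iron in the body is set by hepcidin, a peptide hormone that hepatocytes release and that degrades ferroportin, the exporter through which gut cells, macrophages and hepatocytes pass iron to the blood. Hepatocytes raise hepcidin transcription through the bone morphogenetic protein (BMP) and SMAD pathway when iron is plentiful and through interleukin-6 (IL-6) and STAT3 in inflammation, and they lower it in iron shortage and when red cell production is high. Within cells, iron regulatory proteins bind to hairpins in mRNA when iron is scarce. They stabilize the transferrin receptor mRNA, and block translation of ferritin and ferroportin mRNA.

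The mouse has a pair of hepcidin genes. Hamp encodes the iron-regulating hormone, while Hamp2 encodes a related peptide that lacks this action. In RefSeq (GRCm38.p6) the 250 bases before the start of Hamp lie at chr7:30944030-30944279 and those before Hamp2 at chr7:30924182-30924431, both on the minus strand. They are shown because both genes had low counts in the same livers. The first set of capitals marks GGCGCC, known as the BMP response element of Hamp, or the 6 bases aligned with it in Hamp2. The second set marks the STAT element of the form TTCNNNGAA.
Hamp: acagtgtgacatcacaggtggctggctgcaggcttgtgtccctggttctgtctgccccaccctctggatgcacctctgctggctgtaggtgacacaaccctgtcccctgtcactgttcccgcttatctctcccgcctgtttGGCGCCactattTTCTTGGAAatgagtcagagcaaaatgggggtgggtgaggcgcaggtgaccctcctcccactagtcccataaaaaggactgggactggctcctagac
Hamp2: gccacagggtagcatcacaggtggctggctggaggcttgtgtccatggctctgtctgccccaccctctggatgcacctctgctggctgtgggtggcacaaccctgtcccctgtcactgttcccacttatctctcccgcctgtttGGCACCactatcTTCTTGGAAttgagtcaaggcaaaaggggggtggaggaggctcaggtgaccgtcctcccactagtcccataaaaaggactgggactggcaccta

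The windows were 91.9% identical over 247 aligned bases, with 20 substitutions. One of them, G145A, counted from 1 at the first base of the Hamp window with the Hamp base first, fell in the BMP response element, so that Hamp2 read GGCACC there. The element began at position -109 of Hamp, and the aligned bases at -106 of Hamp2. The STAT element was present in both genes, at -97 and -94. Among 32851 promoter windows of 300 bases in RefSeq, searched on both strands, 11.9% held GGCGCC, 8.30% held TTCNNNGAA and 0.645% held both. Promoter windows were found for 7 of the 10 genes, and besides Hamp only 1 of the windows of Tfrc held GGCGCC. The Hamp and Hamp2 transcripts were 94.6% identical, and 16.6% of the 50-base stretches of Hamp also occurred in Hamp2, so a share of the reads of either gene could be placed on the other.

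Iron-responsive elements were looked for in GENCODE M21 transcripts (GRCm38) as a hairpin of 27 bases with the loop CAGTGN, in which N is any base but G, a paired upper stem and an unpaired C below it. One element was found in the 5′ UTR of each ferritin gene and of Slc40a1, which encodes ferroportin, and 4 in the 3′ UTR of Tfrc, which encodes the transferrin receptor. They are shown because they are the part of these mRNAs that the iron regulatory proteins bind. The loop is in capitals.
Fth1, chr19:9982733-9982759, plus strand: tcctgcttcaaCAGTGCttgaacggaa
Ftl1, chr7:45459780-45459806, minus strand: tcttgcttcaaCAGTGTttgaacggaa
Slc40a1, chr1:45925466-45925492, minus strand: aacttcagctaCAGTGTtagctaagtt
Tfrc, element 1, chr16:32631220-32631246, plus strand: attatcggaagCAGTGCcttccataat
Tfrc, element 2, chr16:32631599-32631625, plus strand: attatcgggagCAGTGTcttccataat
Tfrc, element 3, chr16:32631664-32631690, plus strand: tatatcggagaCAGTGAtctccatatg
Tfrc, element 4, chr16:32631711-32631737, plus strand: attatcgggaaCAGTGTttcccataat
No such element was found in the transcripts searched for Hamp, Hamp2, Bmp6, Id1, Tfr2 or Trf. Of 58797 coding transcripts, 115 (0.196%) held one.

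Total counts lay between 18223135 and 28656631 per liver. Counts were TMM-scaled in edgeR and given as CPM (counts relative to the scaled library total), and differences were tested by edgeR's quasi-likelihood test over 14252 genes with Benjamini-Hochberg adjustment at a false discovery rate (FDR) of 0.05. Marker sums, here and below, are relative to library totals before this scaling. The 8 hepatocyte markers summed to 123113 to 141818 CPM in DIO, 86166 to 122704 in GB-IL and 120792 to 152420 in RYGB. All 4 GB-IL livers were below every DIO liver, but GB-IL liver 4 (122704) was only just below DIO liver 3 (123113). The separation does not hold with TMM-scaled totals, as the factors were 0.922 for GB-IL liver 2 (111773) and 1.06 for DIO liver 2 (124288). Of the 8 markers 4 were higher and 4 lower in GB-IL than in DIO, and 0 were called. The part of hepatocyte content in the results for GB-IL was not tested. One GB-IL liver, number 4, did not separate from the DIO livers. Its score on the first principal component (48.1% of variance) was -36.5, where DIO scores ran from -47.3 to -22.8 and the other GB-IL scores were 20.4 or more. RYGB livers 2, 3 and 4 also scored within the DIO range, at -25.4, -34.7 and -33.1. Values that GB-IL liver 4 moved by over 1.5 times, and Hamp and Trf, are also given without that liver. It was picked for its likeness to DIO, so leaving it out favours larger differences. In bulk liver, fewer cells of a type and less RNA per cell cannot be told apart.

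By group mean, hepcidin mRNA was lowest after RYGB and highest after GB-IL. Hamp (chr7:30942368-30944032, minus strand, positions from GENCODE M21 in GRCm38) stood at 277, 159.7, 41.5, 217 and 632 CPM in DIO livers 1 to 5. In the RYGB livers it was 0.601, 6.46, 45.7, 32.1 and 8.55 CPM, which rest on 11, 131, 1299, 777 and 247 reads. In the GB-IL livers it was 3198, 472, 531 and 168 CPM. Thus 4 of the 5 RYGB livers were below every DIO liver, and the remaining liver, number 3, was just above the lowest DIO liver, number 3. The means were 265 ± 222 CPM in DIO (SD, n = 5), 1092 ± 1413 in GB-IL (SD, n = 4) and 18.7 ± 19.3 in RYGB (SD, n = 5). The GB-IL mean was carried by liver 1, at 3198 CPM, while livers 2, 3 and 4 were within the DIO range.

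In Hamp2 the RYGB livers were apart from all others. The gene (chr7:30922372-30924681, minus strand) measured 95.1, 97.7, 109.6, 24.2 and 73.7 CPM in the DIO livers. The RYGB livers gave 0.437, 2.96, 5.60, 11.8 and 0.900 CPM. All 5 RYGB livers were below all DIO and all GB-IL livers, which had 232, 34.7, 59.9 and 108 CPM. The share of Hamp2 in the reads of the pair varied widely within groups, from 10.02% to 72.5% in DIO, from 6.75% to 39.1% in GB-IL and from 9.52% to 42.1% in RYGB.

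The transferrin receptor gene Tfrc (chr16:32608920-32632794, plus strand), through which cells take up transferrin-bound iron, had higher values in both operated groups. The DIO livers were close together, at 16.0, 15.0, 17.7, 13.9 and 12.0 CPM. The GB-IL livers measured 41.0, 34.7, 21.1 and 30.5 CPM. The RYGB livers were spread over a wide range, at 81.7, 103, 47.1, 24.4 and 263 CPM. Every operated liver was above every DIO liver, and the highest value was that of RYGB liver 5. The means were 14.9 ± 2.15 CPM in DIO (SD, n = 5), 31.8 ± 8.35 in GB-IL (SD, n = 4) and 104 ± 94.0 in RYGB (SD, n = 5).

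**Figure D1:**
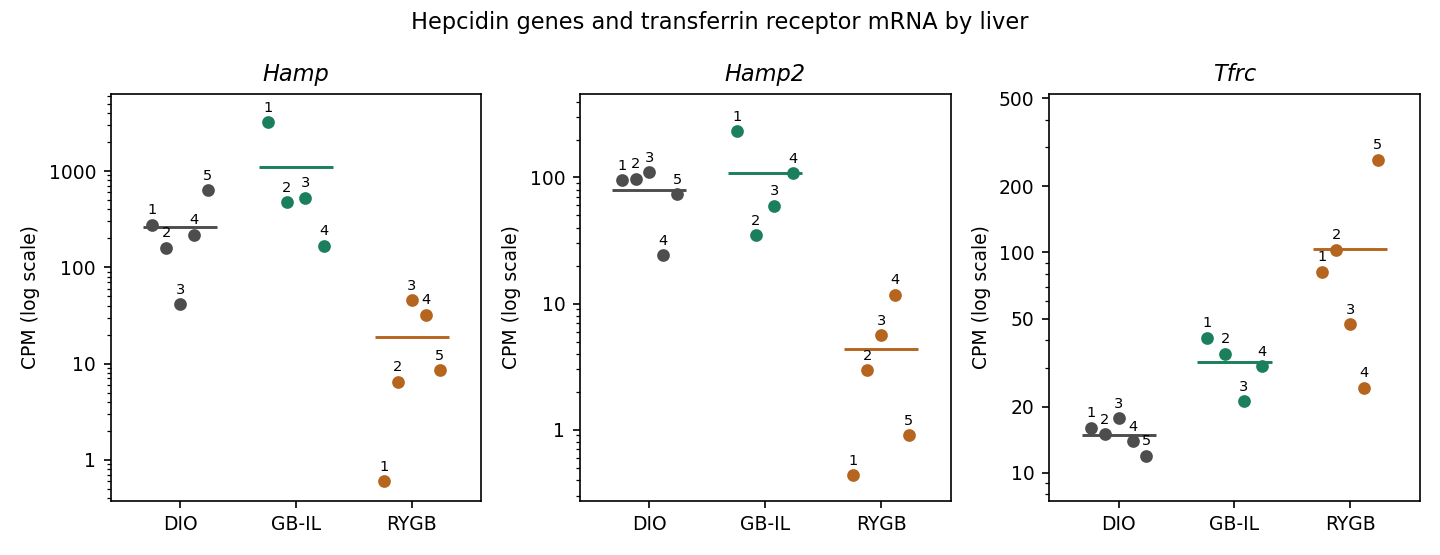
Level of Hamp, Hamp2 and Tfrc (CPM, log scale) in each liver by group, with the liver's number beside each point and a line at the group mean. RYGB livers lie below all DIO livers for Hamp2 and, but for liver 3, for Hamp, and all operated livers lie above the DIO livers for Tfrc.

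In the comparison of RYGB with DIO, which asks how the livers of bypassed mice differed from those of obese mice without surgery, Tfrc, Hamp2 and Hamp had the largest differences of the 10 genes. Tfrc had the smallest p-value of all 14252 genes tested, with a log2 fold change of 2.80 (SE 0.483, 6.96-fold) and an adjusted p = 0.218 in edgeR's quasi-likelihood test. Hamp2 ranked 5, with a log2 fold change of -4.20 (SE 0.787, 18.4-fold lower) and the same adjusted p = 0.218. Hamp had a log2 fold change of -3.82 (SE 1.05, 14.2-fold lower) and an adjusted p = 0.348. None of them passed the FDR, and neither did any other gene: 0 of 14252 (0%) were called in this comparison, although 1241 (8.71%) had an unadjusted p below 0.05. Among the 10 genes 3 were below that level, namely these 3. For Tfrc and Hamp2 the exact two-sided permutation test over livers gave p = 0.00794, the smallest that 5 against 5 livers allow, and for Hamp it gave p = 0.0159.

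Other tools called these genes. DESeq2 called 3 of the 10 genes, Tfrc (adjusted p = 7.23e-06), Hamp2 (adjusted p = 6.26e-06) and Hamp (adjusted p = 0.0210), against 97 of 14176 genes in all (0.684%). The exact test of edgeR called the same 3, with adjusted p = 0.00014, 0.000507 and 0.0491, against 0.302% of all genes. Limma's voom with sample quality weights also called these 3 genes, with adjusted p = 0.00834 for Tfrc, 0.00476 for Hamp2 and 0.0108 for Hamp, against 11.9% of all genes. In the quasi-likelihood test Tfrc passed the FDR without RYGB liver 4 (adjusted p = 0.0337), then the only 1 of all genes called, and Hamp2 passed it when only the DIO and RYGB livers were fitted (adjusted p = 0.0375). Livers of the groups did not overlap in 2 of the 10 genes, Tfrc and Hamp2, against 3.53% of all genes tested.

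The comparison of GB-IL with DIO, in which the route of bile, the surgery and what follows from it cannot be told apart, gave no call for the hepcidin genes or for Tfrc. Hamp had a log2 fold change of 2.04 (SE 1.00, 4.12-fold, adjusted p = 0.235, edgeR quasi-likelihood), which was 0.546 without GB-IL liver 1 and 2.39 (adjusted p = 0.0911) without liver 4. Hamp2 had a log2 fold change of 0.44 (SE 0.724, adjusted p = 0.718 in the same test), and -0.25 without liver 1. Tfrc had a log2 fold change of 1.09 (SE 0.480, 2.13-fold, adjusted p = 0.193), and it ranged between 0.944 and 1.25 when each liver was left out in turn. It was the single gene of the 10 whose GB-IL and DIO livers did not overlap, against 4.17% of all genes tested (exact two-sided permutation p = 0.0159, the smallest that 4 against 5 livers allow).

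Set against each other, the operated groups differed most, among the 10 genes, in the hepcidin genes. Hamp was 58.3-fold higher in GB-IL than in RYGB (log2 fold change 5.87, SE 1.17, adjusted p = 0.0645, edgeR quasi-likelihood). Hamp2 was 24.9-fold higher (log2 fold change 4.64, SE 0.817, adjusted p = 0.0552). Tfrc had a 3.26-fold lower level (log2 fold change -1.71, SE 0.501, adjusted p = 0.107), with GB-IL livers 1, 2 and 4 inside the RYGB range and GB-IL liver 3 below it. No gene passed the FDR in this comparison (0%), 5 of the 10 genes had an unadjusted p below 0.05, against 3147 genes (22.1%) in all, and 2 of the 10, Hamp and Hamp2, did not overlap, against 2.84%. Without GB-IL liver 4 the test called 5 of the 10 genes, Hamp, Hamp2, Tfrc, Id1 and Fth1, but it then called 21.5% of all genes. DESeq2 called 4 of them, Hamp, Hamp2, Tfrc and Id1, against 5.96% of all genes, edgeR's exact test the same 4 against 4.76%, and voom with sample quality weights 0 of the 10 against 0.807%.

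**Figure D2:**
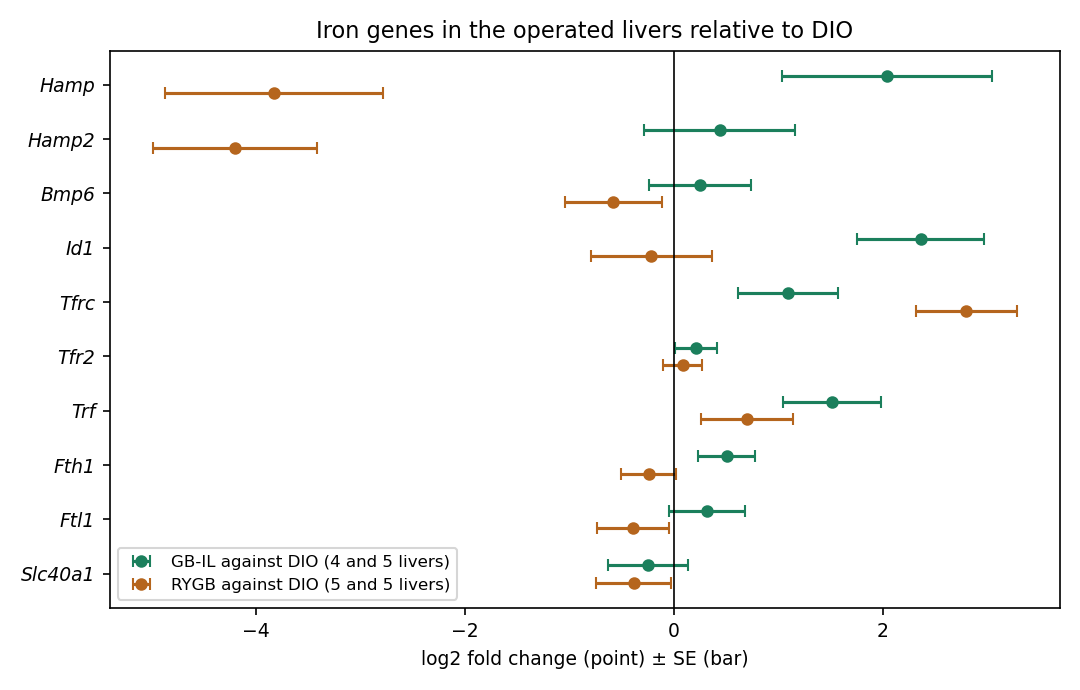
Log2 fold change (points) with its SE (bars) of the 10 iron genes in GB-IL and RYGB relative to DIO, from edgeR's quasi-likelihood fit; both comparisons use the same 5 DIO livers. The largest values are those of Hamp (-3.82), Hamp2 (-4.20) and Tfrc (2.80) in RYGB, and of Hamp (2.04) and Id1 (2.37) in GB-IL.

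Upstream of hepcidin, the ligand Bmp6 (chr13:38345107-38500302, plus strand), which sinusoidal endothelial cells make in response to iron, was scarce in every liver. It measured 1.57, 3.35, 1.73, 3.62 and 3.27 CPM in DIO. GB-IL livers had 7.83, 1.52, 1.06 and 2.51 CPM and RYGB livers 1.20, 1.38, 2.11, 2.28 and 2.04 CPM, so the groups overlapped. Relative to DIO the log2 fold change was 0.25 (SE 0.487) for GB-IL and -0.58 (SE 0.466) for RYGB, with adjusted p = 0.763 and 0.756 in edgeR's quasi-likelihood test. The value for GB-IL turned to -0.67 without GB-IL liver 1. At 22 to 149 reads per liver, no difference was detected.

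Id1 (chr2:152736251-152737410, plus strand), a direct target gene of BMP and SMAD signalling that is used as its readout beside Hamp, was the gene that the quasi-likelihood test called in GB-IL. It stood at 4.24, 2.36, 1.48, 2.32 and 5.29 CPM in DIO. GB-IL livers had 44.3, 10.5, 3.22 and 6.94 CPM. Livers 1, 2 and 4 were above every DIO liver, while liver 3 was within the DIO range. Its log2 fold change was 2.37 (SE 0.609, 5.15-fold, adjusted p = 0.0474 in edgeR's quasi-likelihood test). Of the 10 genes 1 was thus called, against 3.26% of all genes tested, and 3 (Id1, Trf and Tfrc) had an unadjusted p below 0.05, against 23.1%.

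The call for Id1 was close to the threshold and ended in most fits with a liver left out. Leaving out any 1 of the 5 DIO livers or of the 5 RYGB livers, or GB-IL liver 1 or 2, ended the call, with adjusted p between 0.0550 and 0.247. When the liver was a DIO liver or GB-IL liver 1 or 2, the test called 0 genes of the whole table. With an RYGB liver left out it still called 294 to 482 genes (2.07% to 3.41%). Without GB-IL liver 1 the log2 fold change was 1.13. DESeq2 and edgeR's exact test called Id1 and Trf (2 of the 10 genes against 9.11% and 7.91% of all genes), whereas voom with sample quality weights called 0 of the 10 against 4.13%. In RYGB, Id1 measured 4.21, 1.87, 2.11, 2.07 and 3.29 CPM, all within the DIO range (log2 fold change -0.21, SE 0.578, adjusted p = 0.937 in edgeR's quasi-likelihood test). The low Hamp of the RYGB livers thus stood beside Id1 values in the DIO range. The difference between GB-IL and RYGB in Id1 was 2.58 on the log2 scale (SE 0.612, adjusted p = 0.0820 in the same test).

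The other BMP target genes were followed in a list of 8, of which 7 besides Id1 were tested. In GB-IL 6 of these 7 were higher than in DIO and 3 had an unadjusted p below 0.05, where 23.1% of all genes did, but 0 passed the FDR in the quasi-likelihood test, 1 (Atoh8) in DESeq2 and in edgeR's exact test (9.11% and 7.91% of all genes) and 0 with voom. Atoh8, a transcription factor gene that acts on Hamp, had a log2 fold change of 1.56 (SE 0.46, adjusted p = 0.0765, edgeR quasi-likelihood), with 87.6, 56.0, 27.4 and 12.8 CPM in the GB-IL livers and 8.66 to 23.9 in DIO. Id3 had a log2 fold change of 1.29 (SE 0.47, adjusted p = 0.130), and 0.221 without liver 1. Livers 1 to 3 stood above DIO for Atoh8 and livers 1 and 2 for Id3, and liver 4, which was above DIO in Id1, was in the DIO range in both. The 7 genes had a median log2 fold change of 0.569, beside 0.0390 over all genes tested. In RYGB 5 of the 7 were higher and 2 lower, 0 of them with an unadjusted p below 0.05 and 1 (Id4) called by voom (11.9% of all genes), and the median was 0.132, beside 0.0118 over all genes.

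Of the receptors and transducers of BMP signals 12 genes besides Bmp6 were tested. In GB-IL 0 of the 12 were called by the quasi-likelihood test, and 1 had an unadjusted p below 0.05 (23.1% of all genes), which DESeq2 also called (9.11% of all genes). This was Tmprss6, a protease that cuts hemojuvelin and so holds hepcidin down, with a mean of 340 ± 79.1 CPM in GB-IL (SD, n = 4) against 492 ± 69.0 in DIO (SD, n = 5) and a log2 fold change of -0.53 (SE 0.20, adjusted p = 0.145, edgeR quasi-likelihood). In RYGB 0 of the 12 were called by the quasi-likelihood test and 2 (Acvr1 and Smad5) by voom, which called 11.9% of all genes. Of the 12 genes 1 had an unadjusted p below 0.05, where 8.71% of all genes did. This was Acvr1, a BMP type I receptor, which had a log2 fold change of 0.45 (SE 0.16, adjusted p = 0.468). The gene of hemojuvelin, the BMP co-receptor of hepatocytes, is listed as Hfe2 and measured 87.9 ± 16.4 CPM in DIO, 79.7 ± 18.7 in GB-IL and 99.4 ± 12.4 in RYGB.

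**Figure D3:**
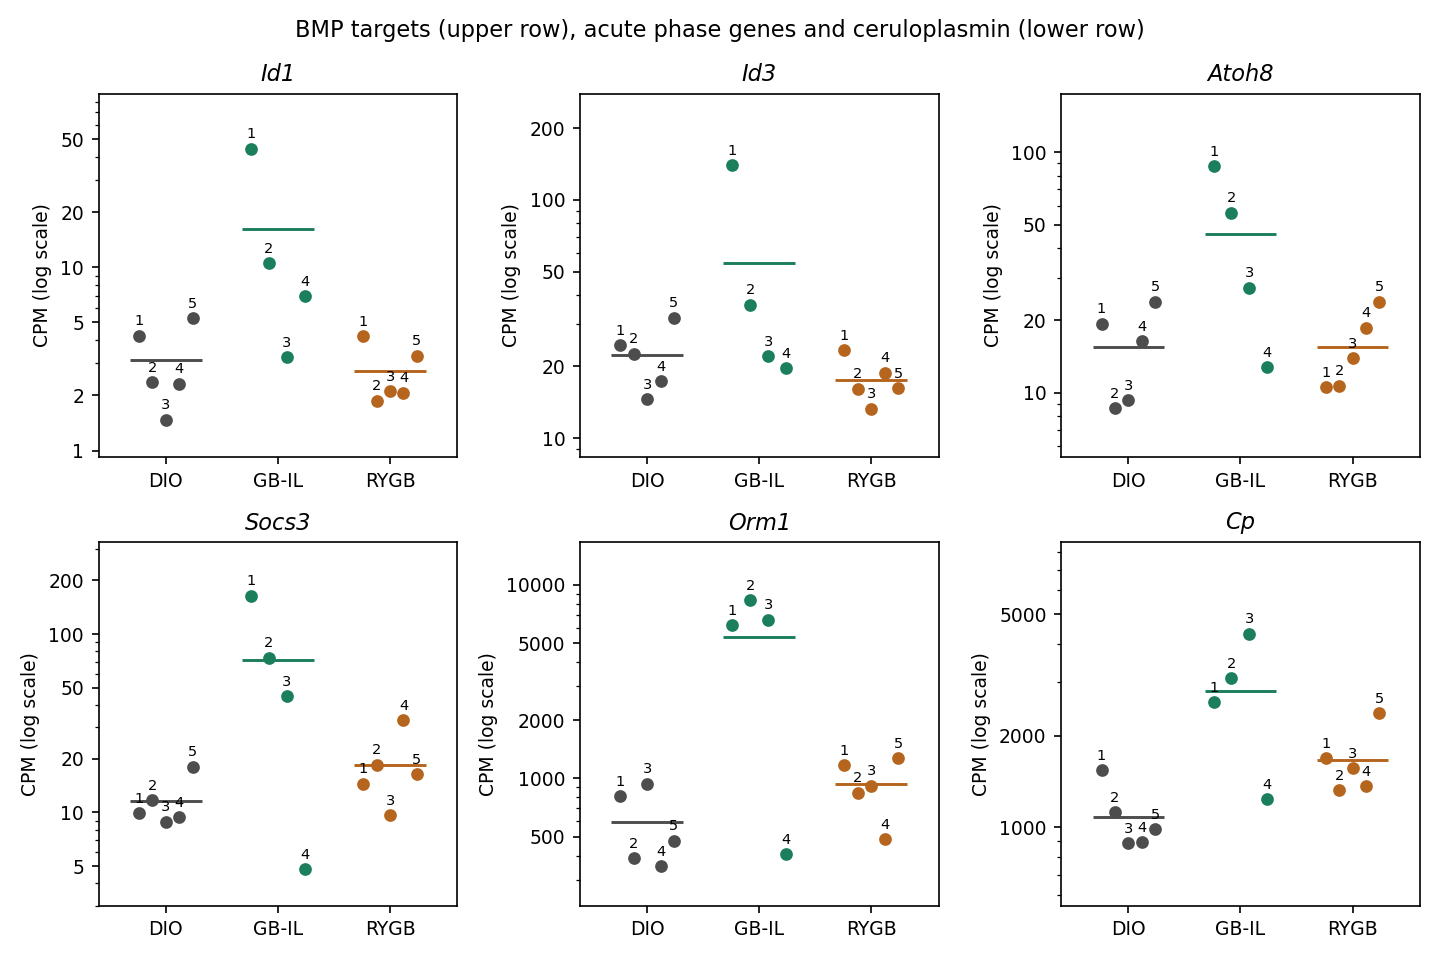
Level (CPM, log scale) of the BMP targets Id1, Id3 and Atoh8 and of Socs3, Orm1 and Cp in each liver by group, with the liver's number beside each point and a line at the group mean. For Socs3 and Orm1 GB-IL livers 1 to 3 lie above all DIO livers and GB-IL liver 4 within or below them, whereas for Id1 liver 4 lies above the DIO livers.

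The list for the second known input to hepcidin, the acute phase response driven by IL-6 and STAT3, gave most of the calls among iron-related genes after GB-IL. Of 16 tested genes of this list, 9 were called higher and 0 lower, where 3.26% of all genes were called, among them Saa3 (log2 fold change 3.89, SE 0.66), Orm1 (3.18, SE 0.61), Saa2 (6.12, SE 1.19) and Lcn2 (6.30, SE 1.23), each with an adjusted p = 0.0278 in edgeR's quasi-likelihood test. Without any 1 of the DIO livers, or without GB-IL liver 1 or 2, that test called 0 genes of the whole table, these included. With voom 4 of the 16 (Hpx, Orm1, Orm2 and Saa3) were called, and Saa2 (adjusted p = 0.0511) and Lcn2 (adjusted p = 0.0698) were not. The 4 named first encode serum amyloid A proteins, orosomucoid and the siderophore-binding lipocalin 2. The STAT3 feedback gene Socs3 measured 164, 73.5, 44.7 and 4.80 CPM in the GB-IL livers and 8.85 to 17.98 in DIO. GB-IL livers 1 to 3 were high in these genes, and liver 4 was not. Liver 4 also had the lowest Hamp of the group, but the Hamp of livers 2 and 3 was within the DIO range as well. Of the 16 genes 12 were higher in GB-IL and 4 lower (Il6ra, Il6st, Saa4 and Crp), these 4 without an unadjusted p below 0.05. Il6 was too scarce to be tested, with a mean of 0.0992 CPM in GB-IL and 0.0105 in DIO. For RYGB 0 of the 16 genes were called by the quasi-likelihood test and 1 (Saa4) by voom (11.9% of all genes), 2 had an unadjusted p below 0.05 (8.71% of all genes), and the median log2 fold change was 0.225, beside 2.37 in GB-IL. Compared directly between GB-IL and RYGB, Saa3 had a log2 fold change of 4.65 (SE 0.69, adjusted p = 0.0552).

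Marker genes of other cells differed between groups. The 7 neutrophil markers summed to 2.13 to 4.62 CPM in DIO, where Ly6g was at 0 in every liver. The sums were 1.76 to 390 CPM in GB-IL and 2.83 to 138 CPM in RYGB, the highest of RYGB being liver 5, which also had the highest Tfrc. The 10 macrophage markers summed to 454 to 801 CPM in DIO, 661 to 2096 in GB-IL and 488 to 1160 in RYGB. In GB-IL 3 of these 10 (Marco, Cd68 and C1qb) were called higher by the quasi-likelihood test, where 3.26% of all genes were called. It also called 3 of 5 tested neutrophil markers higher (S100a8, S100a9 and Retnlg), of which voom did not call Retnlg (adjusted p = 0.0599). Sinusoidal endothelial markers, of the cells that make Bmp6, summed to 240 to 308 CPM in DIO, 245 to 353 in GB-IL and 226 to 670 in RYGB. The 6 stellate cell markers summed to 211 to 324 CPM in DIO, and to 814, 316, 175 and 306 in the GB-IL livers and 308 to 659 in RYGB. Of these markers 1, Des, was called higher in GB-IL, though not by voom (adjusted p = 0.341). It measured 243 CPM in GB-IL liver 1 and 12.7 in the next. Of the 4 cholangiocyte markers the quasi-likelihood test called Krt19 and Krt7 higher in GB-IL, against 3.26% of all genes, and voom did not call Krt7 (adjusted p = 0.161). The sums of the 4 were 4.601 to 10.1 CPM in DIO, 29.5, 39.5, 12.5 and 8.65 in the GB-IL livers and 6.64 to 13.1 in RYGB. GB-IL livers 1 and 2, the highest of their group in Id1 and Id3, were thus also the highest in the cholangiocyte sum. In the stellate cell sum only liver 1 was above the DIO livers, while livers 2 and 4 were within their range and liver 3 was below it. The part of these cells in the results for the iron genes was not tested.

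Red cell precursors also express Tfrc. Of 8 listed erythroid markers 7 were in the table, and they summed to 247 to 2439.6 CPM in DIO and to 164 to 1771 CPM in GB-IL. The RYGB livers had sums of 951, 187, 192, 117 and 2064 CPM. RYGB livers 2, 3 and 4, with 103, 47.1 and 24.4 CPM of Tfrc, were thus below every DIO liver in these markers and above every DIO liver in Tfrc, while liver 5 was the highest of its group in both. Alas2, the first enzyme of haem synthesis in red cell precursors, was called lower in GB-IL (log2 fold change -1.63, SE 0.42, adjusted p = 0.0458 in edgeR's quasi-likelihood test), and in RYGB it had a log2 fold change of -0.87 (SE 0.38, adjusted p = 0.547). Of the 7 markers it was the only 1 called in GB-IL, against 3.26% of all genes.

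Tfr2 (chr5:137569840-137587481, plus strand), the second transferrin receptor, is made by hepatocytes and acts as a sensor of transferrin-bound iron. The group means were 408 ± 27.7 CPM in DIO (SD, n = 5), 474 ± 128 in GB-IL (SD, n = 4) and 433 ± 32.0 in RYGB (SD, n = 5). The range was 371 to 447 CPM in DIO and 389 to 478 in RYGB. GB-IL livers had 536, 521, 555 and 282 CPM, so that 3 livers were above and liver 4 below every DIO liver. Log2 fold changes were 0.21 (SE 0.200) for GB-IL and 0.09 (SE 0.189) for RYGB, with adjusted p = 0.503 and 0.926 in edgeR's quasi-likelihood test. Without GB-IL liver 4 the first was 0.389 (adjusted p = 0.0784). Per kb of transcript, the mean levels of Tfrc and Tfr2 were 3.05 and 139.5 CPM in DIO and 21.2 and 148 CPM in RYGB.

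Trf (chr9:103204001-103230444, minus strand) encodes transferrin, the iron carrier of plasma. DIO livers held 3299, 2191, 3716, 3119 and 2718 CPM. GB-IL livers held 5431, 14786, 11816 and 2396 CPM and RYGB livers 6317, 3846, 3125, 2616 and 8514 CPM. In GB-IL livers 1 to 3 were above every DIO liver, and liver 4 was again in the DIO range. For GB-IL the log2 fold change was 1.52 (SE 0.466, 2.86-fold, adjusted p = 0.0838, edgeR quasi-likelihood). It was called by DESeq2 (adjusted p = 0.0155) and by edgeR's exact test (adjusted p = 0.0242), and by the quasi-likelihood test without GB-IL liver 4 (log2 fold change 1.82, adjusted p = 0.00629), which then called 24.6% of all genes. For RYGB it was 0.70 (SE 0.440, adjusted p = 0.680), with livers 1, 2 and 5 above every DIO liver.

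The ferritin subunits store iron, Fth1 (chr19:9980598-9985098, plus strand) as the heavy chain with ferroxidase activity and Ftl1 (chr7:45457944-45459884, minus strand) as the light chain. Fth1 measured 1653, 1215, 1917, 1397 and 1476 CPM in DIO. GB-IL livers had 2516, 3078, 1399 and 1705 CPM and RYGB livers 1979, 1189, 1249, 1037 and 1033 CPM. All groups overlapped, with RYGB liver 1 apart from the other RYGB livers. Log2 fold changes were 0.51 (SE 0.276) for GB-IL and -0.24 (SE 0.261) for RYGB relative to DIO, with adjusted p = 0.275 and 0.831 in edgeR's quasi-likelihood test. Between GB-IL and RYGB it was 0.74 (SE 0.276, adjusted p = 0.157).

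Ftl1 was highest in the same GB-IL liver (2) and RYGB liver (1) as Fth1, and in DIO liver 3. It measured 2246, 1434, 3204, 2113 and 2096 CPM in DIO, 2674, 4963, 1463 and 2000.2 CPM in GB-IL and 2813, 1774, 1441, 1266 and 1195 CPM in RYGB. Relative to DIO the log2 fold change was 0.32 (SE 0.364) for GB-IL and -0.39 (SE 0.345) for RYGB, with adjusted p = 0.584 and 0.783 in edgeR's quasi-likelihood test. The share of Ftl1 in the reads of both ferritin genes was 58.6 ± 3.13% in DIO (SD, n = 5), 54.6 ± 4.92% in GB-IL (SD, n = 4) and 56.1 ± 2.95% in RYGB (SD, n = 5). Both ferritin genes have many processed pseudogenes, to which a share of their reads could be assigned. The control of ferritin through its 5′ UTR element acts on translation, which these counts do not measure.

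Slc40a1 (chr1:45908068-45926523, minus strand), which encodes ferroportin, is highest in Kupffer cells and also made by hepatocytes. It measured 126, 217, 137, 142 and 133 CPM in DIO. GB-IL livers had 42.0, 79.3, 207 and 181 CPM and RYGB livers 135, 87.9, 98.5, 88.4 and 169 CPM. GB-IL livers 1 and 2 were the lowest of all livers, and the Kupffer cell markers of these livers went in different directions. In liver 1 Clec4f (42.2 CPM), Cd5l (65.0), Timd4 (2.47) and Emr1 (7.197) were below every DIO liver, and in liver 2 Timd4 (3.11) and Emr1 (15.0) were. Marco, C1qa, C1qb and Cd68 were above every DIO liver in both. The part of these cells in the Slc40a1 values was not tested. The difference from DIO was -0.25 on the log2 scale (SE 0.381) for GB-IL and -0.38 (SE 0.358) for RYGB, with adjusted p = 0.699 and 0.793 in edgeR's quasi-likelihood test. The value for GB-IL was -0.47 without liver 4 and turned in direction without liver 1 (0.0313) and with voom (0.116).

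**Figure D4:**
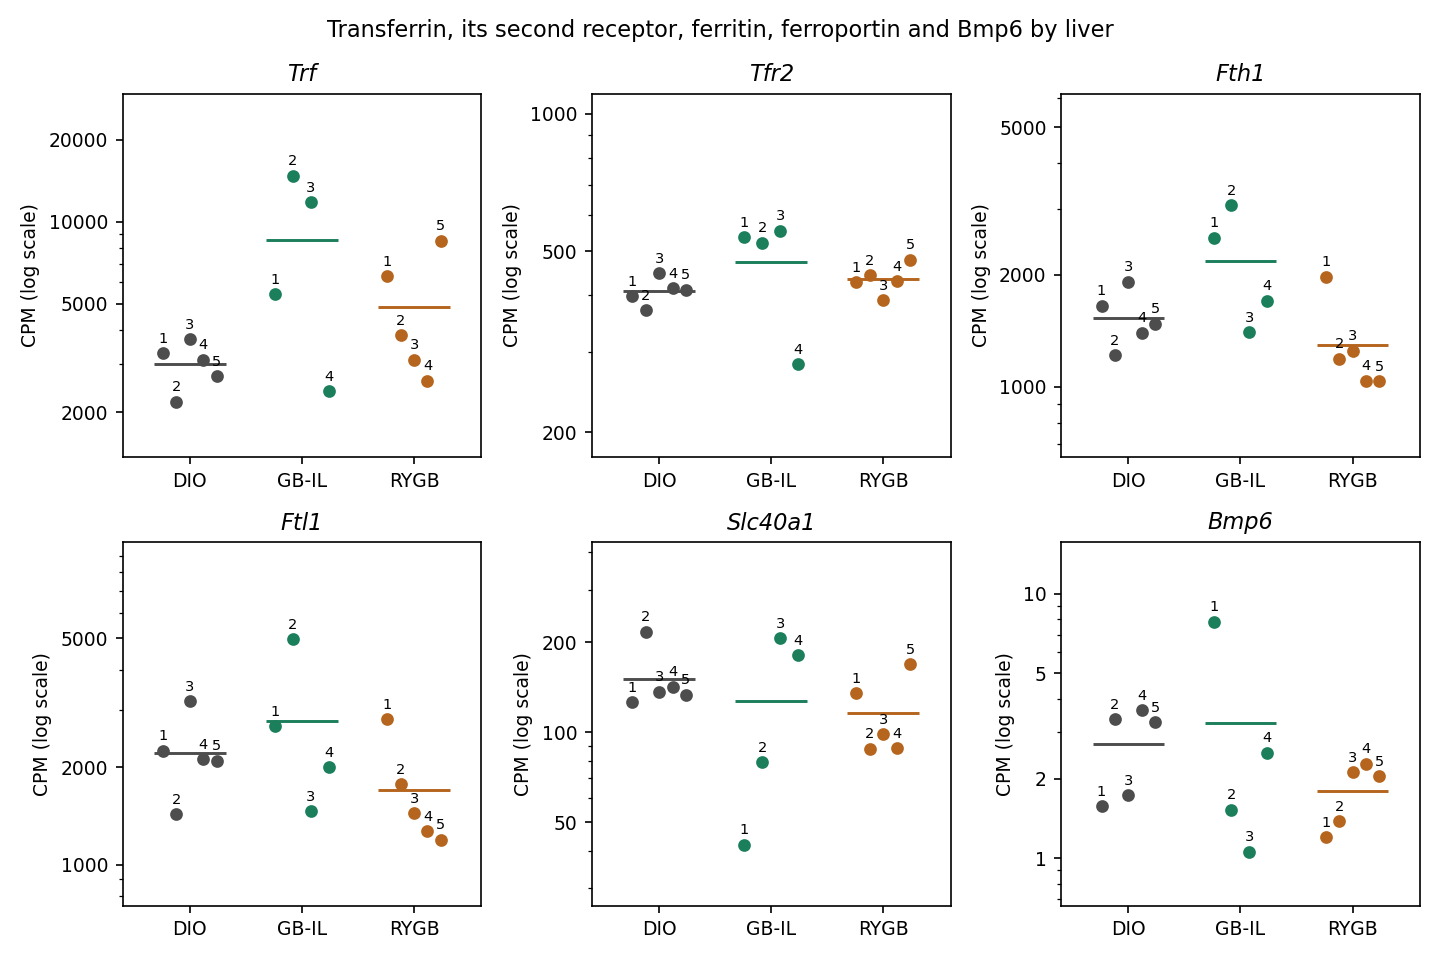
Level (CPM, log scale) of Trf, Tfr2, Fth1, Ftl1, Slc40a1 and Bmp6 in each liver by group, with the liver's number beside each point and a line at the group mean. The groups overlap in all 6 genes, and GB-IL livers 2 and 3 carry the highest Trf values (14786 and 11816 CPM).

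Per kb of transcript, the order of the means in DIO was Ftl1 (2292 CPM per kb), Fth1 (1649), Trf (1170.3), Hamp (647), Hamp2 (183), Tfr2 (139.5), Slc40a1 (44.8), Id1 (3.36), Tfrc (3.05) and Bmp6 (0.753). Of neighbours in this order, Fth1 and Trf, Tfr2 and Slc40a1, Slc40a1 and Id1, and Tfrc and Bmp6 differed by more than the larger of their SDs, and the others did not. In RYGB the mean was 45.6 ± 47.1 CPM per kb for Hamp (SD, n = 5) and 9.92 ± 10.6 for Hamp2, and Tfrc, at 21.2 ± 19.2, stood between them.

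Across livers Hamp was set beside each of the other 9 genes on the log2 CPM scale. RYGB livers lay apart from the others in Hamp2, so no pooled correlation is given for that pair, and among the 9 DIO and GB-IL livers no relation between Hamp and Hamp2 was detected (Pearson's r = 0.216, exact permutation p = 0.585, adjusted p = 0.658, Spearman's rho = -0.15, exact permutation p = 0.708, adjusted p = 0.873). With Id1 the relation among these 9 livers was r = 0.848 (exact permutation p = 0.00538, adjusted p = 0.0484 over 9 relations) and rho = 0.683 (exact permutation p = 0.0503, adjusted p = 0.443). It rested on the extremes, since r was 0.364 without DIO liver 3 and GB-IL liver 1. Over all 14 livers r was 0.551 (permutation p = 0.0453, adjusted p = 0.102) and rho 0.613 (permutation p = 0.0224, adjusted p = 0.101), and without RYGB livers 1 and 2 r was 0.729. These 9-liver values were chosen after the data had been seen.

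Tfrc had r = -0.617 with Hamp over all 14 livers (permutation p = 0.0193, adjusted p = 0.0870) and rho = -0.534 (permutation p = 0.0526, adjusted p = 0.158), and r = -0.473 without RYGB livers 1 and 2. Among the 9 DIO and GB-IL livers r was 0.455 (exact permutation p = 0.229, adjusted p = 0.413) and rho 0.233 (exact permutation p = 0.552, adjusted p = 0.828), so the relation pooled over these 9 livers was not negative. These values include the distance between the 2 groups. As deviations from group means over the 14 livers r was -0.309, and in the 5 DIO livers alone it was -0.864, both given as a description. The 5 RYGB livers, like the 5 DIO livers, are too few for a correlation of their own. Of the RYGB livers, liver 1 had the lowest Hamp and liver 5 the highest Tfrc.

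**Figure D5:**
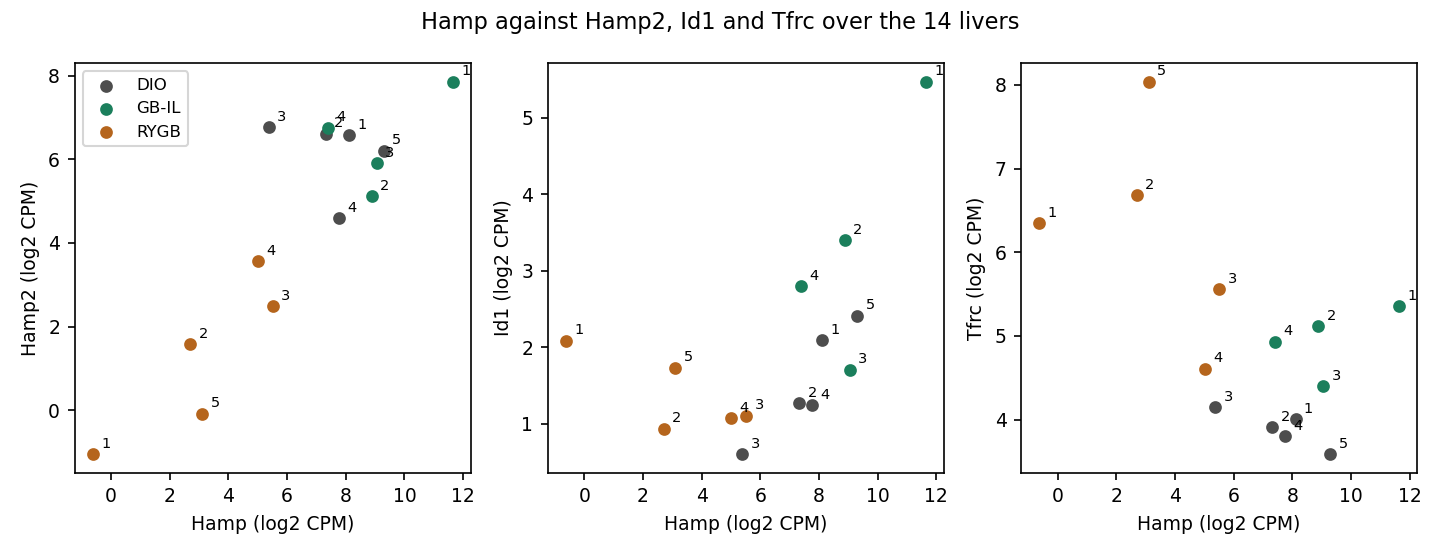
Hamp (log2 CPM, horizontal) against Hamp2, Id1 and Tfrc (log2 CPM, vertical) in the 14 livers, coloured by group and numbered by liver. RYGB livers form the lower left of the Hamp2 panel, RYGB liver 4 lies below GB-IL livers 1, 2 and 4 in Tfrc, and GB-IL liver 1 is the highest in Hamp, Hamp2 and Id1.

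By Pearson's r with Hamp over the 14 livers, given as a description, the nearest genes outside the set of 10 among 14251 were Lurap1l (0.893), Cyp4b1 (0.875), Rbm18 (0.850), Rbm34 (0.832) and Med31 (0.817). Among the other members of the set, Hamp2 ranked 3, Id1 486, Bmp6 503 and Tfrc 14038, with the rest between 2190 and 9581. These values include the distance of the RYGB livers from the others. The levels of the 5 nearest genes outside the set differed less between groups than that of Hamp. Lurap1l, for example, had 50.4 ± 9.18 CPM in DIO (SD, n = 5), 56.9 ± 7.95 in GB-IL (SD, n = 4) and 40.9 ± 8.49 in RYGB (SD, n = 5).

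Further genes of iron and haem handling were described through the remaining lists. Over all 9 lists, without the 10 genes, 78 genes were tested. In GB-IL 11 of the 78 (14.1%, against 3.26% of all genes) were called, all higher and 9 of them from the acute phase list (15 by DESeq2, 14 by edgeR's exact test and 6 with voom). In RYGB 0 of the 78 were called and 7 had an unadjusted p below 0.05, where 8.71% of all genes did. DESeq2 called 1 of them, the exact test 0 and voom 8, where voom called 11.9% of all genes, so these counts were near the background.

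Among the genes of iron uptake, Slc11a2, the endosomal iron transporter DMT1 that works downstream of Tfrc, had the smallest p-value in RYGB and was called by DESeq2 and voom. Its RYGB livers measured 41.7, 55.7, 43.8, 40.8 and 82.8 CPM, all above the DIO livers at 22.7 to 35.2. The highest was liver 5, as for Tfrc. The log2 fold change was 0.91 (SE 0.233, adjusted p = 0.331, edgeR quasi-likelihood), and in GB-IL 0.26 (SE 0.245, adjusted p = 0.510). Of the 8 genes 0 were called in RYGB, 3 had an unadjusted p below 0.05 (8.71% of all genes) and 2, Slc11a2 and Timd2, did not overlap (3.53% of all genes), the second with lower values.

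Among storage and release genes, Cp, the plasma ferroxidase ceruloplasmin, was called in GB-IL, with 2574, 3084, 4310.2 and 1239 CPM against 886 to 1537 in DIO (log2 fold change 1.37, SE 0.32, adjusted p = 0.0343, edgeR quasi-likelihood). It was the only 1 called of 6 genes tested in this list, against 3.26% of all genes. GB-IL livers 1 to 3 were above every DIO liver, and liver 4 was not. In RYGB, Cp had a log2 fold change of 0.61 (SE 0.30, adjusted p = 0.586).

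Of 7 tested genes of haem uptake and breakdown, Hmox1, the haem oxygenase that frees iron from haem, was the only 1 called in GB-IL, against 3.26% of all genes, though not by voom (adjusted p = 0.0794). It measured 183, 88.4, 105 and 34.5 CPM there, against 24.4 to 35.7 in DIO (log2 fold change 1.76, SE 0.44, adjusted p = 0.0437, edgeR quasi-likelihood). RYGB livers 1 and 5 had 61.7 and 65.0 CPM and the others 18.2 to 23.9. Haem synthesis genes were all lower in GB-IL (8 of 8) and lower in RYGB for 7 of 8, 0 of them called, with 2 and 1 at an unadjusted p below 0.05 (23.1% and 8.71% of all genes) and 1 in each called by voom (Cpox and Urod). Alad, the second enzyme of the pathway, was below every DIO liver in all 4 GB-IL livers (log2 fold change -0.86, SE 0.30, adjusted p = 0.121), where 4.17% of all genes did not overlap.

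The iron regulatory protein genes gave 0 calls in the quasi-likelihood test and 1 in DESeq2 (Aco1 in GB-IL, where DESeq2 called 9.11% of all genes). Aco1, which encodes the first of them, was at 213 ± 13.8 CPM in RYGB (SD, n = 5) and 276 ± 9.70 in DIO (SD, n = 5) without overlap of livers (3.53% of all genes), with a log2 fold change of -0.37 (SE 0.22, adjusted p = 0.651, edgeR quasi-likelihood). In GB-IL it was 114, 117, 203 and 270.3 CPM (log2 fold change -0.65, SE 0.23, adjusted p = 0.126). The second, Ireb2, had log2 fold changes of -0.41 (SE 0.35) in GB-IL, -0.76 without GB-IL liver 4, and -0.25 (SE 0.33) in RYGB. Of the 12 genes of mitochondrial iron and iron-sulphur clusters, 0 were called in either operated group by the quasi-likelihood test, 3 and 1 had an unadjusted p below 0.05 in GB-IL and RYGB (23.1% and 8.71% of all genes), and 11 of the 12 were lower in RYGB, with a median log2 fold change of -0.26, beside 0.0118 over all genes. Glrx5, which takes part in iron-sulphur cluster assembly and was called by voom, had the smallest p-value there (log2 fold change -0.63, SE 0.28, adjusted p = 0.549).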

How the data were processed

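Liver RNA was amplified, sequenced on the Illumina HiSeq, aligned to mm10 with TopHat 2 and counted per gene with HTSeq by the authors, and the deposited values are these whole read counts without normalization. Nothing used here gives tool versions, the annotation or how strand was treated, so reads from antisense genes cannot be told apart. Which of the 2 library kits in the labels served which liver is also not given, and no kit term could be fitted.

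The count analysis used edgeR 4.0.16 in R 4.3.3 (filterByExpr by group, TMM, a quasi-likelihood fit of all 14 livers with a mean per group), with DESeq2 1.42.0 and limma 3.58.1 as alternatives. Tables and sequences were handled in Python 3.11.15. P-values were adjusted by Benjamini-Hochberg over all genes tested. Both operated groups were compared with the same 5 DIO livers. Relations over livers used 100000 permutations on log2 CPM with a prior count of 1, or all permutations of 9 livers. The fits were tested on simulated data with the same biological spread for every gene and no outlying livers, so that test does not cover the uneven spread of these livers. Total counts were 18223135 to 28656631 per liver. Marker sums are CPM of the total count without TMM.

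The 10 genes, the gene lists and the markers were chosen with earlier results of these data known. All 10 genes are described. From each other list, up to 4 genes past the FDR with the smallest p-values, or failing these the 2 smallest, were to be named, as were the 5 genes nearest to Hamp. Hfe2, Id4, Ireb2, Socs3, Smad5, Saa4, Il6, Il6ra, Il6st, Crp, Cpox, Timd2, the genes named only as called by voom, the single cell type markers and the values of named genes in a second comparison were added after the data were seen. The alternatives tried are listed with their effects in the closing part.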

Additional observations from a re-analysis of the deposited data

Results flagged for a closer look

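In 4 of the 30 sets of livers tested (10 genes in 3 groups) 1 liver lay far from the others of its group by Dixon's criterion, which chance exceeds in about 1 of 20 sets. Hamp in GB-IL liver 1 was 3198 CPM, against 531 in the next. Tfr2 in GB-IL liver 4 was 282 CPM, against 521 in the next. Fth1 in RYGB liver 1 was 1979 CPM, against 1249 in the next. Slc40a1 in DIO liver 2 was 217 CPM, against 142 in the next.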

How the results depend on the processing

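Each of the 30 tests (10 genes in 3 comparisons) was repeated under 11 other settings and with each of the 14 livers left out. Of the results 298 under the settings and 392 with a liver left out kept their direction and their side of the FDR, 22 and 8 passed it anew, 4 and 12 lost it, and 6 and 8 changed sign. RLE and upper quartile scaling, robust estimation and a mean of at least 50 counts moved no count of called genes. For GB-IL against DIO, 1 of the 10 genes was called, 0 with total counts, with voom, with only the 2 compared groups and with the replicate block, 2 (Id1 and Trf) in DESeq2 and edgeR's exact test, and 0 to 2 with a liver left out (2 without GB-IL liver 4, 1 without GB-IL liver 3, 0 without any other). For RYGB against DIO, 0 were called, 3 in DESeq2, voom and the exact test, 1 (Hamp2) with only the 2 groups, and 0 to 1 with a liver left out (1, Tfrc, without RYGB liver 4). For GB-IL against RYGB, 0 were called, 4 in DESeq2 and the exact test, 2 (Hamp and Hamp2) with no filter, and 0 to 5 with a liver left out (5 without GB-IL liver 4, 1 without GB-IL liver 3). Over all genes, GB-IL against DIO gave 465 calls, 1292 in DESeq2, 1127 in the exact test, 0 with only the 2 groups, 0 without any 1 DIO liver or GB-IL liver 1 or 2, and 3572 without GB-IL liver 4. RYGB against DIO gave 0, 97 in DESeq2, 43 in the exact test, 33 with only the 2 groups and 1690 with voom. GB-IL against RYGB gave 0, 845 in DESeq2, 678 in the exact test, 115 with voom, 51 with no filter and 3120 without GB-IL liver 4. The causes were not tested.

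No log2 fold change that changed sign had passed the FDR. For GB-IL against DIO, voom gave -0.14 for Ftl1, 0.12 for Slc40a1 and -0.87 for Bmp6. For GB-IL against RYGB, voom gave -0.26 for Bmp6, and total counts gave -0.015 for Tfr2. With a liver left out, the ranges for GB-IL against DIO were -0.25 to 0.73 for Hamp2, -0.13 to 0.54 for Ftl1, -0.58 to 0.031 for Slc40a1 and -0.67 to 0.54 for Bmp6. For GB-IL against RYGB they were -0.20 to 0.41 for Slc40a1 and -0.10 to 1.12 for Bmp6, and for RYGB against DIO -0.42 to 0.057 for Id1. The relation of Hamp with Tfrc was 0.45 in the DIO and GB-IL livers alone, and as deviations from group means the relations of Hamp with Trf, Fth1 and Ftl1 were -0.23, -0.31 and -0.39.

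The replicate numbers do not pair the livers, since deviations of livers with the same number correlated between -0.369 and 0.375. With the replicate block, 1 of all genes was called for GB-IL against DIO, the log2 value of Id1 was 2.09 (adjusted p = 0.0679, edgeR quasi-likelihood) and that of Hamp2 -0.051. Depth limits Bmp6 and, in RYGB livers, Hamp2.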
